A study of Mus musculus with 6 samples.

Results

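The enzymes and transporters that carry glucose through glycolysis, store it as glycogen and exchange lactate were followed across the hearts of mice labelled null for estrogen-related receptor alpha (ERRα) and of wild-type mice. The module was defined by gene name with no measured value in its rule, but its members were chosen with earlier results of these data known. It lists 31 genes: glucose transporters, every glycolytic step, the bifunctional enzymes that tune phosphofructokinase, glycogen enzymes, lactate dehydrogenases and monocarboxylate transporters. Of these, 28 were found on the array under their own symbol and 26 were bright enough to test, among 12946 genes tested in all. Gpi1, Eno1 and Pfkfb1 had no probe set of that symbol alone, Gapdh was read only by the chip's control probe sets, and Slc16a3 was below the limit on dim signals.

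Glycolysis splits glucose into pyruvate in the cytosol and yields ATP without oxygen. In muscle many of its steps are carried by a muscle isoform, such as the M subunit of phosphofructokinase, while the same step in brain, platelets, fibroblasts and other cells uses a different gene. The adult heart draws most of its ATP from fatty acids, keeps a store of glycogen, and both takes up and releases lactate. ERRα, encoded by Esrra, is an orphan nuclear receptor that acts on genes of mitochondrial oxidation and is known to bind the extended hormone response element TNAAGGTCA.

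The 3 hearts labelled KO came from male C57BL/6J mice aged 2 to 3 months, null for ERRα. The 3 wild-type (WT) hearts came from male mice, of which WT 2 and WT 3 have the same strain and age in the labels and WT 1 has no strain or age entry. All were kept under basal conditions, and each heart had an Affymetrix array to itself (6 in all) read as MAS5 signal. Of how the null allele was made, and of litters, the sources used here say nothing. The labels name no tissue-restricted driver. A bulk heart sample cannot tell fewer cells of a type from less RNA per cell.

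The targeted gene did not read alike in the hearts labelled KO. Esrra gave a signal of 180.1, 24 and 18 in KO 1, KO 2 and KO 3, against 368.1, 394.4 and 349.1 in WT 1, WT 2 and WT 3. KO 1 therefore kept 48.6% of the WT mean, where KO 2 and KO 3 kept 6.48% and 4.86%. Since 1 library went against its label, calls below are given with and without KO 1 where they rest on it. Isoform ratios are given for each heart. The group difference in Esrra was -2.58 on the log2 scale (SE 0.283, adjusted p 3.8e-09, limma). It did not pass when WT 1 was left out (adjusted p 0.0675) or with a robust intensity trend (adjusted p 0.307). Median signals per array were 13.4 to 13.7 in the hearts labelled KO and 12.4 to 16 in WT hearts, with WT 1 the brightest. Ventricular and general cardiomyocyte markers, 10 genes, summed to a signal of 69425.8 to 73908.9 in the hearts labelled KO and 73451.6 to 81171.7 in WT hearts, and none was at 0. All 10 had a negative log2 difference, beside 55.0% of all genes and 69.9% of genes with a WT signal of 1000 or more. In 2 (20%) the groups were apart as lower, beside 9.41% and 17.6%. The lowest was Mybpc3 at -0.33, and 0 of 10 passed.

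At 3 steps a non-muscle isoform was higher in the hearts labelled KO. These were hexokinase 1 (Hk1), the platelet subunit of phosphofructokinase (Pfkp) and the brain-type phosphoglycerate mutase (Pgam1). They were the 3 members of 26 (11.5%) that passed an adjusted p of 0.05 as higher, where 1.78% of all genes tested did so. The liver subunit of phosphofructokinase, Pfkl, went the other way, at a log2 difference of -0.37 with groups apart, and did not pass. No member passed as lower, where 1.18% of all genes did (limma), and at an unadjusted p under 0.05 there were 3 members higher (11.5%) and 4 lower (15.4%), beside 6.07% and 6.44% of all genes. In either direction 3 of 26 passed, beside 2.97% of all genes. Because the members were chosen with earlier results of these data known, these shares are descriptions and not a test of the list. The median log2 difference over the members was -0.0091, with 13 negative and 13 positive, beside -0.028 over all genes.

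Hk1, which phosphorylates glucose on entry and is the hexokinase of brain and red cells, lies on chr10:62268855-62379920 (GRCm38.p6). Its signal was 546.9, 750.3 and 1010.1 in KO 1 to KO 3, against 513.9, 422.1 and 420.8 in WT 1 to WT 3. The groups did not overlap, but KO 1 lay close above WT 1 and KO 3 far above both. The means were 769 ± 232 in the hearts labelled KO and 452 ± 53.4 in WT hearts (SD, n = 3 each), which is a difference of 0.71 in log2 (SE 0.166, adjusted p 0.00666, limma). A dimmer Hk1 probe set gave 370.7, 746.5 and 965.1 in KO 1 to KO 3 and 353.4, 276.7 and 277.4 in WT 1 to WT 3, with the same order of the hearts labelled KO.

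Pfkp, on chr13:6579874-6649060, encodes the platelet subunit of the enzyme that commits glucose carbon to glycolysis. It read 242.9, 423.2 and 518 in KO 1 to KO 3, against 216.8, 188.1 and 208.5 in WT 1 to WT 3. KO 1 was again only just above the WT hearts, at 119% of the WT mean, while KO 2 was at 207% and KO 3 at 253%. The mean signal was 395 ± 140 in the hearts labelled KO and 204 ± 14.8 in WT hearts (SD, n = 3 each), which is a difference of 0.84 in log2 (SE 0.183, adjusted p 0.00323, limma). The 2 other Pfkp probe sets differed by 0.88 and 0.71 on the same scale. The set at 0.71 was near the floor, at 9.9, 21 and 24.5 in KO 1 to KO 3 and 2.6, 10.6 and 1.8 in WT 1 to WT 3.

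Pgam1, on chr19:41911871-41918665, encodes the phosphoglycerate mutase of brain and most other tissues. Its signal was 260.1, 268.3 and 352.6 in KO 1 to KO 3, against 215.2, 165.3 and 166.5 in WT 1 to WT 3. All hearts labelled KO stood above all WT hearts, with KO 3 highest. The means of 294 ± 51.2 in the hearts labelled KO and 182 ± 28.5 in WT hearts (SD, n = 3 each) gave a log2 difference of 0.64 (SE 0.170, adjusted p 0.0210, limma).

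**Figure D1:**
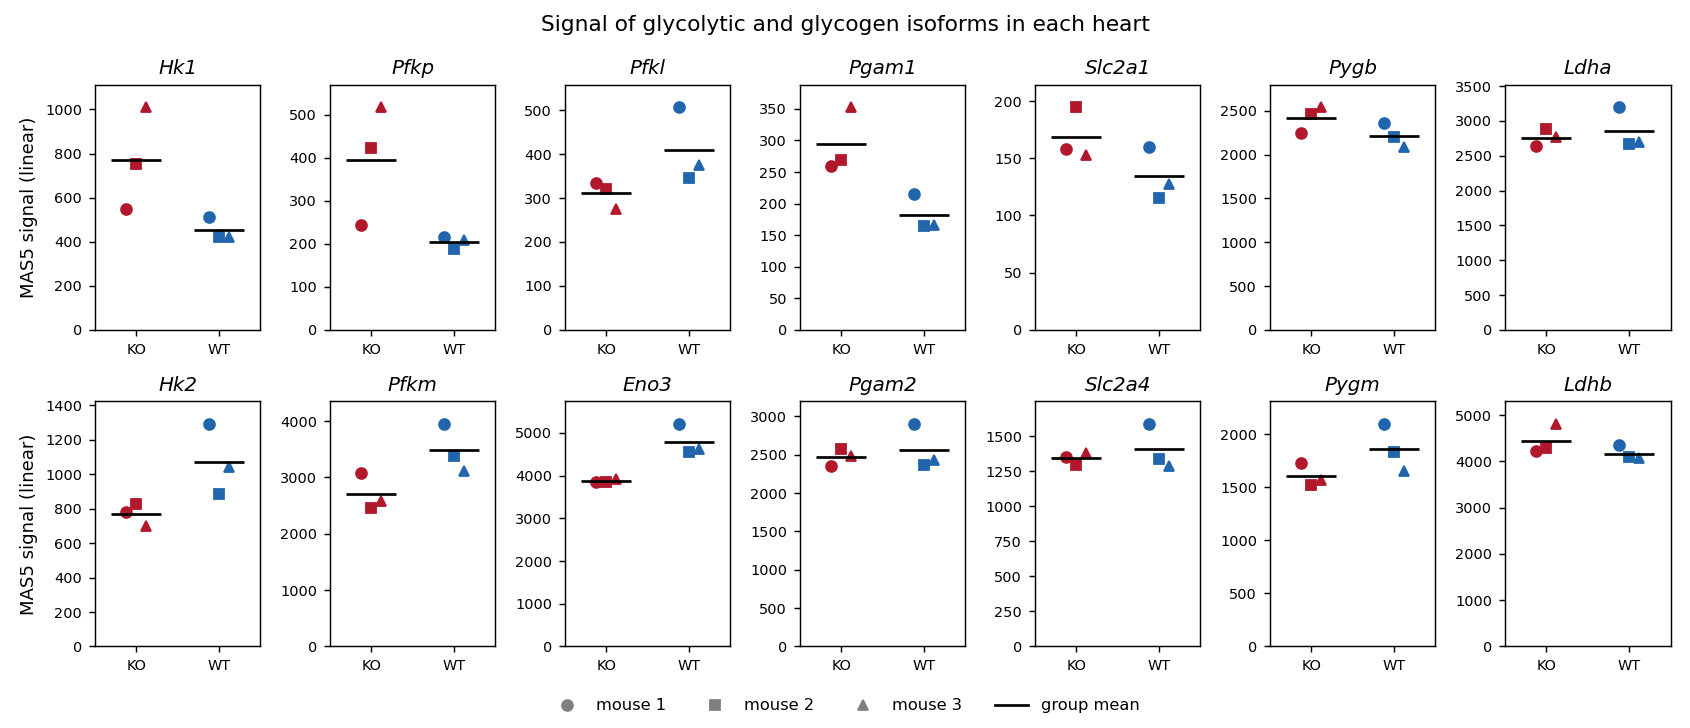
MAS5 signal (linear axis from 0) of 14 isoform genes in each heart, KO left and WT right in each panel; symbols mark mice 1 to 3 and the line is the group mean. Hk1, Pfkp and Pgam1 lie higher in the KO hearts, while Hk2, Pfkm, Pfkl and Eno3 lie lower there without passing the test.

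These calls depended on single hearts and on the variance model. None of the 3 passed without the limit on dim probe sets (adjusted p 0.128 to 0.155) or without the intensity trend (0.0642 to 0.0993). Without KO 3 none of the 3 passed (adjusted p 0.244 for Hk1, 0.097 for Pfkp, 0.290 for Pgam1, limma), and the differences were 0.49, 0.62 and 0.51. Without WT 1, Hk1 (adjusted p 0.0904) and Pfkp (0.125) did not pass, at differences of 0.80 and 0.88, and Pgam1 did. Pgam1 did not pass without WT 2 (adjusted p 0.104) or without WT 3 (0.109). Without KO 1, the heart with residual Esrra signal, all 3 passed, with differences of 0.93, 1.14 and 0.72 and adjusted p-values of 7.0e-05, 2.5e-06 and 0.0166. Hk1 and Pgam1 were read only from probe sets whose suffix marks probes shared between transcripts, so a test without such probe sets keeps Pfkp alone of the 3.

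Markers of other cells also moved between the groups, and their part in these results was not tested. Adipocyte markers summed to 3802.8 to 5590.3 in the hearts labelled KO and 3400.1 to 4112.8 in WT hearts, and 5 of 6 tested were higher. KO 1 had the lowest of the KO sums and lay within the WT range, but Fabp4 made up most of each sum. Fabp4 read 3467.9, 3255.4 and 4040.2 in KO 1 to KO 3 and 4025.1, 3322.5 and 3835.7 in WT 1 to WT 3. Its groups overlapped. In KO 1, Adipoq and Car3 lay above every WT heart, and Cidec lay within the WT range. Car3 read 235, 1331.5 and 1147.7 in KO 1 to KO 3 and 29.7, 42.8 and 67.8 in WT 1 to WT 3. Adipoq, the adipokine adiponectin, read 54, 390.7 and 323 in KO 1 to KO 3 and 22.3, 15.7 and 17 in WT 1 to WT 3. Smooth muscle and pericyte markers summed to 6262.9 to 8168.7 in the hearts labelled KO and 4895.7 to 5839.4 in WT hearts, with 2 of 7 higher. Fibroblast markers summed to 8564.7 to 10045.3 in the hearts labelled KO and 6408.3 to 7677.2 in WT hearts; all 8 had higher, non-overlapping groups and 1, Col3a1, passed. Atrial myocyte markers summed to 13559.5 to 16181.9 in the hearts labelled KO and 2921.5 to 9570.2 in WT hearts, with 6 of 6 higher. KO 1 also had the lowest of the KO sums for smooth muscle and pericyte markers (6262.9) and for fibroblast markers (8564.7). For atrial markers KO 1 had the highest (16181.9), and WT 3 (9570.2) stood above WT 1 (3668.2) and WT 2 (2921.5).

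Among the other marker lists, the sums overlapped between groups for endothelial, leukocyte, erythroid and platelet, and neural markers, and were lower in the hearts labelled KO without overlap for skeletal muscle markers. Endothelial markers summed to 1213.2 to 1566.3 in the hearts labelled KO and 1138.4 to 1455.1 in WT hearts, with 0 of 7 passing in limma and 1 higher at an unadjusted p under 0.05. Leukocyte markers summed to 1702.8 to 2459.8 in the hearts labelled KO and 1512.1 to 2296.6 in WT hearts, with 0 of 6 passing in limma and 1 higher at an unadjusted p under 0.05. Erythroid and platelet markers, given beside the platelet isoform Pfkp, summed to 750.2 to 1021.2 in the hearts labelled KO and 705.7 to 1155.6 in WT hearts. Among them Ppbp, a platelet chemokine, was lower, at 55.1, 75 and 28.9 in KO 1 to KO 3 and 121.3, 59.8 and 167.2 in WT 1 to WT 3 (log2 difference -0.90, SE 0.217, adjusted p 0.00832, limma). Skeletal muscle markers summed to 6352.3 to 6864.2 in the hearts labelled KO and 6980.8 to 8426 in WT hearts. That sum was almost wholly Ckm and Acta1, while Myh1, Myh2, Myh4, Tnnt3, Actn3 and Myod1 were below the limit on dim signals. The sum therefore says little of skeletal muscle cells. Ckm read 5534.1, 5454.7 and 5679 in KO 1 to KO 3 and 6629.2, 5474.5 and 5931.6 in WT 1 to WT 3. Its groups overlapped, Acta1 was lower, Tnni2 was higher and Mylpf did not pass. Neural and Schwann markers summed to 80.7 to 131 in the hearts labelled KO and 62.7 to 87.9 in WT hearts, with 1 of 3 higher. No marker was at 0 in every heart.

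The promoters of the genes that moved, and of muscle isoforms of the same pathway, are shown because ERRα is a DNA-binding receptor. Each is the 250 bases before a start listed for the gene, not always its outermost, 5′ to 3′ on the gene's strand. They are from RefSeq on GRCm38.p6, with the letters AGGTCA or ACGTG, on either strand, in capitals. Hk1 has 2 windows in the table, neither holding any of the motifs searched, and the one shown is at chr10:62340422-62340671 on the minus strand. The window shown lies well inside the span of Hk1 given above. The other, at chr10:62379909-62380158, lies at the outer end of that span and is not shown. Pfkp is from chr13:6648772-6649021 (minus), Pgam1 from chr19:41911621-41911870 (plus), Hk2 from chr6:82774455-82774704 (minus) and Eno3 from chr11:70656926-70657175 (plus). The Eno3 window also lies inside its gene's span, chr11:70653125-70662513, and the Pfkp window lies just inside the outer end of its span.
Hk1: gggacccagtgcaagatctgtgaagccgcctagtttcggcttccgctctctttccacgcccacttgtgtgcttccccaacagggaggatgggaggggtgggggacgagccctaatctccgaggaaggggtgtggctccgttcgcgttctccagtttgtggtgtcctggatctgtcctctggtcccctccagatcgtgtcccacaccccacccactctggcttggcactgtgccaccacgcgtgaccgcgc
Pfkp: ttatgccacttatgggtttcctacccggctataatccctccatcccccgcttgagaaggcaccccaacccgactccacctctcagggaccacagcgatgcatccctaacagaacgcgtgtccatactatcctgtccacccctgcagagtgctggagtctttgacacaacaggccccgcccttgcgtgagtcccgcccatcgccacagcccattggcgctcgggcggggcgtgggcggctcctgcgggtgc
Pgam1: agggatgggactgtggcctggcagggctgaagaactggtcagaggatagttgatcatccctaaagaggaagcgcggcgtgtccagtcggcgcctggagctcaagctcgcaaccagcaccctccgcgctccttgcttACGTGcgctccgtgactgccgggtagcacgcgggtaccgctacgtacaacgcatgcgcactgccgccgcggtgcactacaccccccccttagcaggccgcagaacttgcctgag
Hk2: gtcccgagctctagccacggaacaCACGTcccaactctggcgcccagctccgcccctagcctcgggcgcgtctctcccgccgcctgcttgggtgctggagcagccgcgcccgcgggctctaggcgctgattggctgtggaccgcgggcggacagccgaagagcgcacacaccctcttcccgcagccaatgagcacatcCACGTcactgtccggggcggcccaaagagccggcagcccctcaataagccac
Eno3: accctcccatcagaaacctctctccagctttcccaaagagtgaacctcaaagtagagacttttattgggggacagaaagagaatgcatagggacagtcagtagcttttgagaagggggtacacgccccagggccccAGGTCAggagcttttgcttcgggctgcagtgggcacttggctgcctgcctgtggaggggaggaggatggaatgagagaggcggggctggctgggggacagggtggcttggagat

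The ERRα element TNAAGGTCA was in the window of 0 of 27 members matched, where 1.30% of all genes in the table hold it (352 of 27025). Its shorter core AGGTCA, which any match to the longer element also contains, was in 5 of 27 members: Aldoa, Eno3, Ldhb, Pfkm and Pkm. That is 18.5% of the members beside 15.8% of all genes. In Eno3 it begins 114 bases before the start used for its window, and it is in none of the windows of Hk1, Pfkp or Pgam1. ACGTG, the core letters of hypoxia response elements and of some E-boxes, was in 16 of 27 members (59.3%) beside 18.5% of all genes. A gene counts here if any of its windows holds the letters. By window, 20 of 40 member windows held them, beside 16.6% of all windows. Members had a median GC content of 60.2% in these windows, where all genes had 52.4%. Pgam1 holds ACGTG 114 bases before its start and Hk2 holds it at 226 and 52 bases. Such a match is a description of letters, and no binding was measured in these hearts.

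Of the muscle isoforms, Hk2, Pfkm and Eno3 had groups that did not overlap, lower in the hearts labelled KO, but none passed the test, and Pgam2 overlapped. Non-overlap was lower in the hearts labelled KO for 4 members of 26 (15.4%), Hk2, Pfkm, Pfkl and Eno3, where 9.41% of all genes showed it, and higher for 3 members (11.5%), where 6.81% did. In either direction this is 7 of 26 members beside 16.2% of all genes. Among 522 bright genes, with a WT signal of 1000 or more, a limit chosen after the data were seen, the groups did not overlap as lower in 17.6%. Of 15 members in that class, 3 did so, Hk2, Pfkm and Eno3, a share near that of all such genes.

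Hk2, the insulin-regulated hexokinase of heart and skeletal muscle, read 781.8, 828.3 and 700 in KO 1 to KO 3, against 1293.8, 883.8 and 1040.8 in WT 1 to WT 3. Its log2 difference was -0.46 (SE 0.147, adjusted p 0.0833, limma). Pfkm, the M subunit of phosphofructokinase, read 3076.3, 2462.8 and 2586.6 in KO 1 to KO 3, against 3952.1, 3379.9 and 3118.3 in WT 1 to WT 3. KO 1 came close to WT 3, and the log2 difference was -0.36 (SE 0.118, adjusted p 0.0925, limma). Without KO 1, Pfkm passed as lower (-0.46, adjusted p 0.0305), and Hk2 and Eno3 did not (0.128 and 0.229). Eno3, the muscle enolase, read 3851.2, 3844.7 and 3929.1 in KO 1 to KO 3, against 5215.7, 4548.2 and 4618.5 in WT 1 to WT 3. The hearts labelled KO were closer to one another than the WT hearts were, with means of 3875 ± 47.0 in the hearts labelled KO and 4794 ± 367 in WT hearts (SD, n = 3 each; log2 difference -0.30, SE 0.106, adjusted p 0.123, limma).

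WT 1 was the brightest array, and putting the arrays on a common level changed these 3 calls. With quantile normalization Hk2 (adjusted p 0.0390), Pfkm (0.0405) and Eno3 (0.0198) passed as lower, and with median centring they passed too (0.0496, 0.0444 and 0.0230). Under cyclic loess Hk2 (0.0480) and Eno3 (0.0317) passed and Pfkm (0.0575) did not. Pfkl, the liver subunit of phosphofructokinase, read 335.1, 320.2 and 276.1 in KO 1 to KO 3, against 506.5, 345.1 and 375.4 in WT 1 to WT 3 (log2 difference -0.37, SE 0.164, adjusted p 0.318, limma). Pgam2, the muscle phosphoglycerate mutase, read 2350.4, 2577.3 and 2484.4 in KO 1 to KO 3, against 2903.2, 2367.9 and 2426.3 in WT 1 to WT 3. Its groups overlapped, and its difference of -0.05 had a 95% interval of -0.29 to 0.19.

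**Figure D2:**
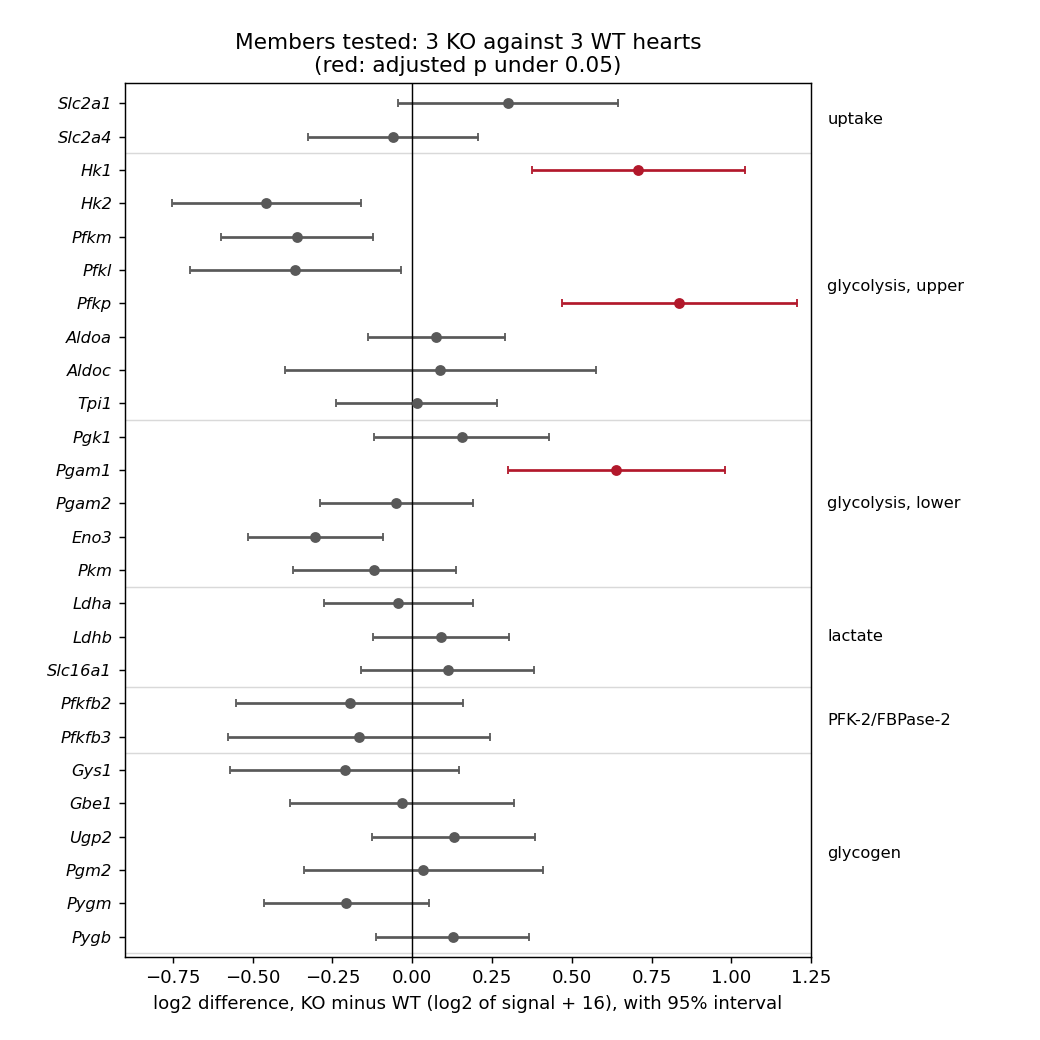
Log2 difference, KO minus WT, of log2(signal + 16) for the 26 members tested, ordered by role, with 95% intervals. Only Hk1, Pfkp and Pgam1 (red) passed an adjusted p of 0.05, at 0.71, 0.84 and 0.64; the group labelled PFK-2/FBPase-2 holds Pfkfb2 and Pfkfb3.

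The balance between partner isoforms was measured within each array as the difference of their log2(signal + 16), called a ratio here. A shift in an array's overall brightness largely cancels in it for bright partners, and less so for dimmer ones such as Slc2a1 because of the added 16. The ratio shows unequal change of the partners and gives no molar proportion. Of 8 isoform sets listed, 7 could be measured, since the enolase set lacked Eno1. In 5 of 7 sets the brain, platelet or basal isoform stood higher relative to its muscle partner in every heart labelled KO than in any WT heart. Of all single genes tested, 16.2% did not overlap in either direction and 6.81% did so as higher. No such share was computed for other pairs of genes. The members already called, Hk1, Pfkp and Pgam1, are partners in these sets, and the members were chosen with earlier results of these data known. The count is therefore a description. With 3 against 3 hearts the smallest two-sided exact permutation p is 0.1, so no set could reach 0.05, and each of the 5 was at that limit (adjusted p 0.14 over the 7 sets).

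The ratio of Pfkp to Pfkm was higher in the hearts labelled KO by 1.20 on the log2 scale, a 2.29-fold shift. Relative to the WT mean it stood at 0.41, 1.49 and 1.70 in KO 1 to KO 3 and at -0.11, -0.07 and 0.18 in WT 1 to WT 3. The ratio of Hk1 to Hk2 was higher by 1.16, or 2.24-fold, standing at 0.70, 1.07 and 1.73 in KO 1 to KO 3 and -0.10, 0.17 and -0.07 in WT 1 to WT 3. In both sets KO 1 was the lowest of the hearts labelled KO. The ratio of Pgam1 to Pgam2 was higher by 0.69 (1.61-fold), at 0.61, 0.52 and 0.94 in KO 1 to KO 3 and 0.05, -0.01 and -0.04 in WT 1 to WT 3.

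With pseudocounts of 1 and 64 the difference was 1.24 and 1.08 for Pfkp to Pfkm, 1.19 and 1.09 for Hk1 to Hk2, and 0.73 and 0.58 for Pgam1 to Pgam2. The other shifts were smaller. The ratio of the basal glucose transporter Slc2a1 to the insulin-responsive Slc2a4 was higher by 0.36 (1.28-fold; 0.39 and 0.29 with pseudocounts of 1 and 64), and that of brain to muscle glycogen phosphorylase, Pygb to Pygm, by 0.33 (1.26-fold). The ratio of Pfkl to Pfkm differed by -0.0056 with overlapping groups (exact permutation p 1). The ratio of Ldha to Ldhb differed by -0.13, also with overlapping groups (exact permutation p 0.3, adjusted 0.35). Of the partners behind the 5 shifted sets, Hk1, Pfkp and Pgam1 passed the test on their own.

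**Figure D3:**
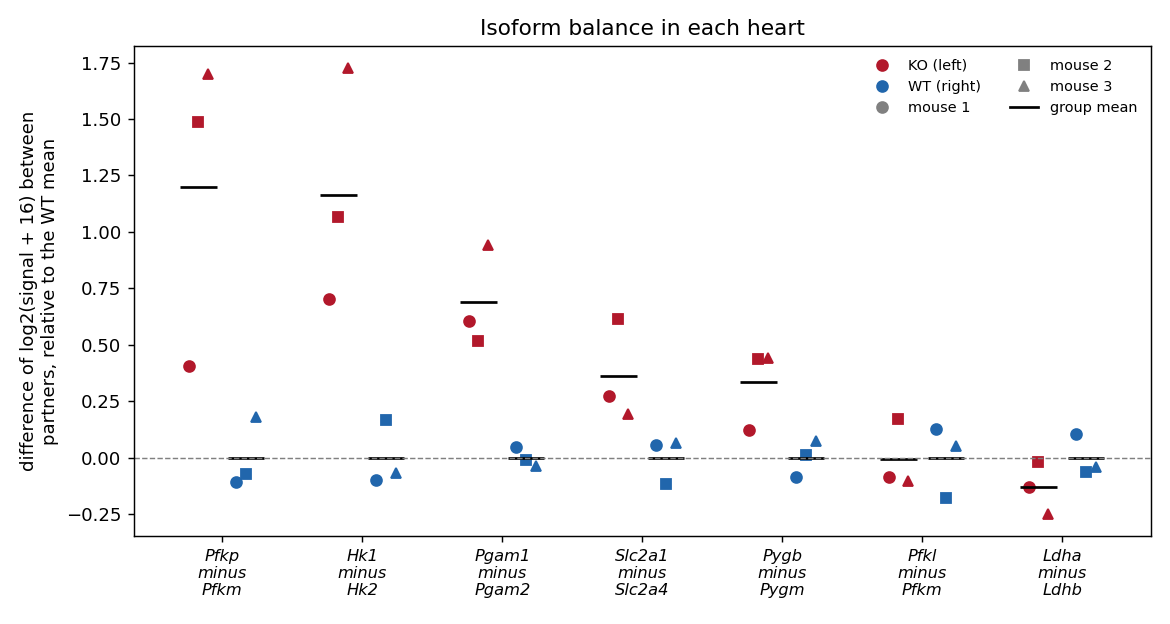
Difference of log2(signal + 16) between partner isoforms within each array, relative to the WT mean, KO left and WT right for each pair, with the line at the group mean. The KO hearts lie above the WT hearts for the first 5 pairs (1.20, 1.16, 0.69, 0.36 and 0.33) and overlap for Pfkl to Pfkm and Ldha to Ldhb.

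Glucose entry showed no passing change. Slc2a1 read 158.2, 194.6 and 152.5 in KO 1 to KO 3, against 159.5, 115.4 and 127.5 in WT 1 to WT 3, with overlapping groups and a log2 difference of 0.30 (95% interval -0.05 to 0.65, adjusted p 0.503, limma). Slc2a4, the transporter that insulin and contraction bring to the surface, read 1353.7, 1292.6 and 1384.4 in KO 1 to KO 3, against 1589.6, 1340.3 and 1289.9 in WT 1 to WT 3. Its difference was -0.06 (95% interval -0.33 to 0.21). The upper end of the interval for Slc2a1 is as large as the difference of Pgam1. A dimmer Slc2a1 probe set read 98.3, 136.6 and 121.6 in KO 1 to KO 3 and 95.5, 72.6 and 65.7 in WT 1 to WT 3. Its groups did not overlap, at a log2 difference of 0.52, and another set differed by 0.30 with overlapping groups.

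Of the 4 lactate members, Ldha, Ldhb and Slc16a1 were bright and did not pass, and Slc16a3 was dim. Ldha, the subunit typical of fast muscle, read 2634.7, 2886.5 and 2764.4 in KO 1 to KO 3, against 3196.8, 2665.8 and 2698.4 in WT 1 to WT 3, a log2 difference of -0.04 (95% interval -0.28 to 0.19). Ldhb, the heart-type subunit, read 4218.9, 4287.8 and 4812.4 in KO 1 to KO 3, against 4348.5, 4086.3 and 4062 in WT 1 to WT 3, a difference of 0.09 (95% interval -0.12 to 0.30). Slc16a1, which carries lactate and pyruvate across the plasma membrane with a proton, read 1752.2, 1626.7 and 2438.9 in KO 1 to KO 3 and 1988.8, 1653.6 and 1674.3 in WT 1 to WT 3. KO 3 alone stood above the rest, and the difference was 0.11 (95% interval -0.16 to 0.38). Slc16a3, the lactate exporter of glycolytic cells, was dim in all hearts, at 6.7, 3.1 and 13.6 in KO 1 to KO 3 and 12.7, 1.9 and 5.8 in WT 1 to WT 3, and was not tested.

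The remaining glycolytic members did not pass. Aldoa, the muscle aldolase, read 4514.6, 4350.1 and 4433.2 in KO 1 to KO 3 and 4649.4, 3921.7 and 4074.2 in WT 1 to WT 3, a log2 difference of 0.08. Tpi1, triose phosphate isomerase, differed by 0.01 and Pkm, pyruvate kinase of muscle and most tissues, by -0.12. Pgk1, the first ATP-yielding kinase of the pathway, read 2309.3, 2222.1 and 2467 in KO 1 to KO 3, against 2863.9, 1675.1 and 1907.1 in WT 1 to WT 3. Its WT hearts lay on both sides of the hearts labelled KO, and the difference was 0.15. With WT 1 and KO 1 both left out Pgk1 passed as higher (0.39, adjusted p 0.0395, limma). Aldoc, the brain aldolase, was barely above the limit on dim signals, at 9.9, 17.9 and 3.9 in KO 1 to KO 3 and 12.4, 5.1 and 8.3 in WT 1 to WT 3, so its difference of 0.09 carries little.

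Gapdh, glyceraldehyde phosphate dehydrogenase, was read by 3 control probe sets and kept out of the test. Its 5′ set gave 7593.1, 7468.5 and 7859.2 in KO 1 to KO 3 and 8523.7, 7838.7 and 7525 in WT 1 to WT 3, with overlapping groups. The ratio of its 3′ to its 5′ set, a measure of RNA integrity and labelling, was 0.779 to 0.792 in the hearts labelled KO and 0.766 to 0.817 in WT hearts. The range of the hearts labelled KO lay within that of the WT hearts.

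The bifunctional enzymes make and break down the sugar bisphosphate that activates phosphofructokinase. Pfkfb2, the heart isoform, read 106.4, 90.2 and 87.1 in KO 1 to KO 3 and 141.1, 109.8 and 85.7 in WT 1 to WT 3, a log2 difference of -0.19 (95% interval -0.55 to 0.16). Pfkfb3, the inducible isoform, was dim, at 13.4, 19.6 and 25.7 in KO 1 to KO 3 and 21.7, 20.2 and 29.2 in WT 1 to WT 3, a difference of -0.17. Neither passed.

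None of the 6 glycogen members tested passed. Gys1, muscle glycogen synthase, read 145.1, 192.6 and 213.3 in KO 1 to KO 3 and 273.8, 164.3 and 212.9 in WT 1 to WT 3, a log2 difference of -0.21. Pygm, muscle glycogen phosphorylase, read 1733.5, 1521.8 and 1565.4 in KO 1 to KO 3 and 2099.1, 1830.2 and 1658.3 in WT 1 to WT 3, also a difference of -0.21. Pygb, brain phosphorylase, read 2250.9, 2462 and 2540.6 in KO 1 to KO 3 and 2359.5, 2196.7 and 2082.6 in WT 1 to WT 3, a difference of 0.13. Ugp2, which makes the UDP-glucose that glycogen synthase uses, differed by 0.13 and Gbe1, the branching enzyme, by -0.03. Pgm2 of the present gene table differed by 0.04; the phosphoglucomutase of muscle glycogen is listed as Pgm1, which read 444.9, 418.8 and 469.8 in KO 1 to KO 3 and 658.2, 519.8 and 523.7 in WT 1 to WT 3 (difference -0.33, adjusted p 0.337, limma).

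Of the 23 members that did not pass, adjusted p ran from 0.0833 to 0.983, and for 9 the 95% interval reached beyond -0.5 or 0.5 on the log2 scale. For those genes the number of arrays leaves changes of that size within the interval.

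**Figure D4:**
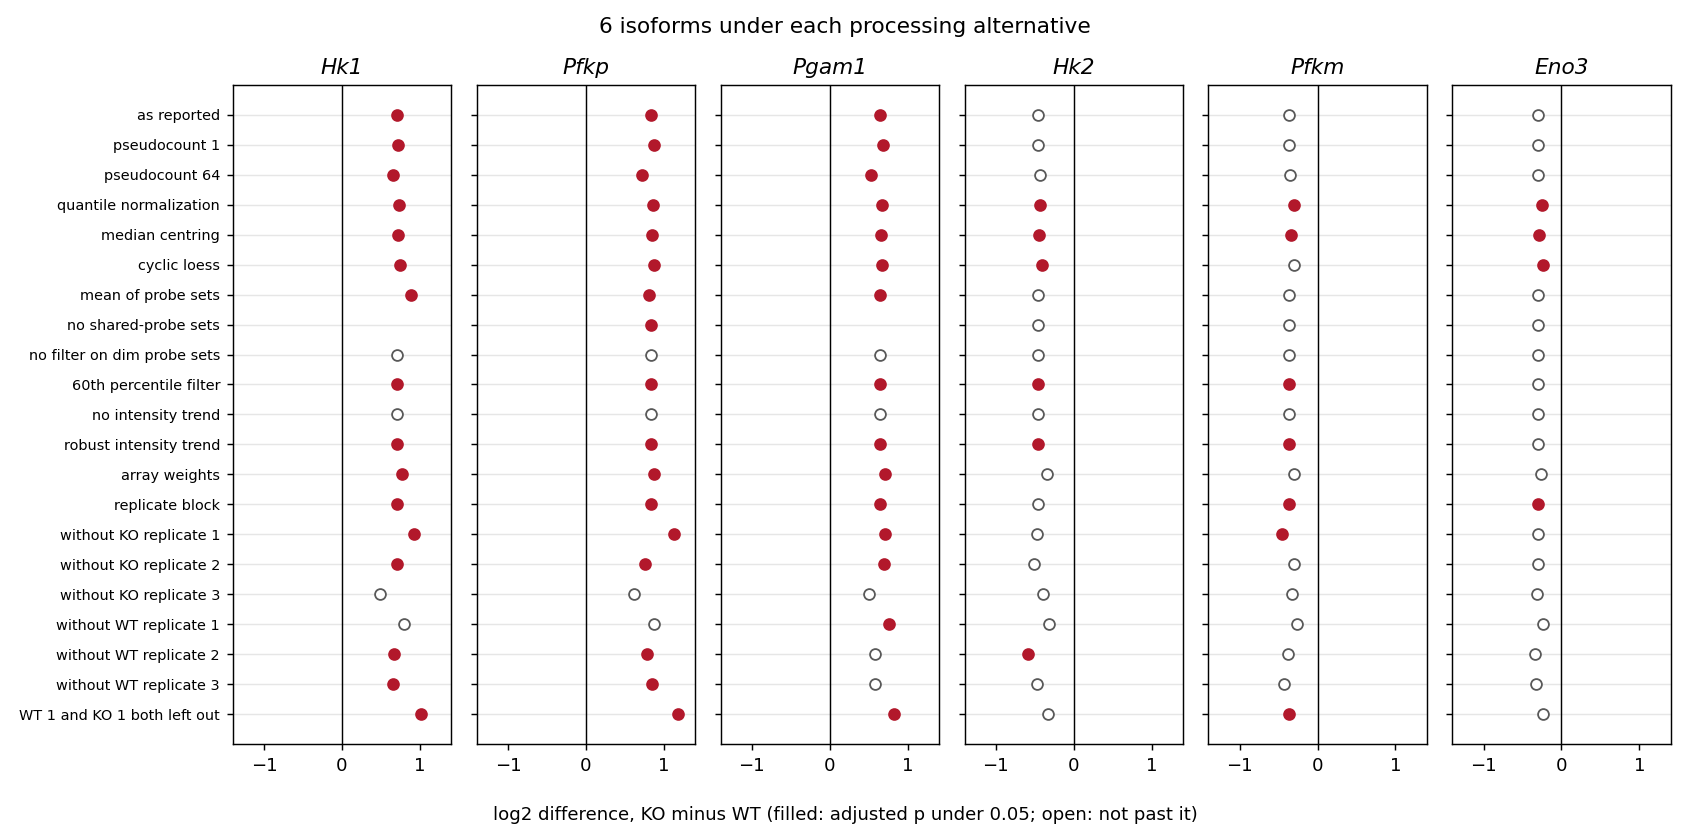
Log2 difference, KO minus WT, of 6 isoforms as reported and under each alternative (one per row), filled where adjusted p was under 0.05. The values keep their side of 0 in every row tested; fills are lost for Hk1, Pfkp and Pgam1 without KO 3 and gained for Hk2 and Pfkm under rows such as quantile normalization.

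Other genes of the same pathways, in 4 lists outside the module, gave 4 calls among 60 genes tested (6.67%, beside 2.97% of all genes). Of these 1 was higher (1.67%, beside 1.78%) and 3 were lower (5% beside 1.18%). Among 14 tested of 22 other glycolytic isoforms and regulators, 2 were lower and 0 higher (limma, 0 higher also at an unadjusted p under 0.05), and the median difference was -0.13. Fbp2, the muscle fructose bisphosphatase that runs against phosphofructokinase, read 182.5, 105.8 and 136.1 in KO 1 to KO 3, against 309.7, 279.4 and 224.7 in WT 1 to WT 3. No heart labelled KO reached the lowest WT heart (log2 difference -0.88, SE 0.178, adjusted p 0.00105, limma), and it did not pass without WT 1 (adjusted p 0.0857) or without the filter (0.0739). Ldhd, the mitochondrial dehydrogenase of D-lactate, read 89, 66.3 and 55 in KO 1 to KO 3, against 124.8, 115.1 and 107.2 in WT 1 to WT 3 (-0.63, SE 0.175, adjusted p 0.0305, limma). It did not pass without KO 2 (0.130), KO 3 (0.320), WT 1 (0.151) or WT 2 (0.0755), nor with quantile normalization (0.0546), cyclic loess (0.0543), the mean of probe sets (0.0771), no filter on dim probe sets (0.188) or no intensity trend (0.0997).

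Of 22 other glycogen genes, 19 were tested, 1 was higher and 1 lower. Stbd1, which binds glycogen and tethers it to membranes, read 77.5, 74.9 and 91.4 in KO 1 to KO 3, against 57.2, 37.3 and 40.8 in WT 1 to WT 3 (0.68, SE 0.177, adjusted p 0.0180, limma). It did not pass without KO 3 (0.125), WT 2 (0.117) or WT 3 (0.0755), nor with no filter (0.166) or no trend (0.0642). Ppp1r3a, the muscle subunit that brings protein phosphatase to glycogen, read 7.1, 19.3 and 23.2 in KO 1 to KO 3, against 49.9, 25.6 and 36.2 in WT 1 to WT 3 (-0.72, SE 0.210, adjusted p 0.0442, limma). It is a dim gene, and it did not pass without KO 1 (0.273), WT 1 (0.330) or WT 3 (0.0819). Nor did it pass with a pseudocount of 1 (0.0661), quantile normalization (0.103), median centring (0.0987), cyclic loess (0.103), the mean of probe sets (0.0518), array weights (0.0998), no filter (0.321) or no trend (0.113). Ppp1r3b, a sister targeting subunit, read 136.9, 129.2 and 160.8 in KO 1 to KO 3 and 114.2, 75.3 and 92.2 in WT 1 to WT 3, with groups apart but an adjusted p of 0.0869 (difference 0.54, limma). Phkg2, a catalytic subunit of phosphorylase kinase, read 44.8, 31.9 and 42.7 in KO 1 to KO 3 and 86, 59.2 and 53.1 in WT 1 to WT 3 (-0.54, adjusted p 0.102, limma).

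**Figure D5:**
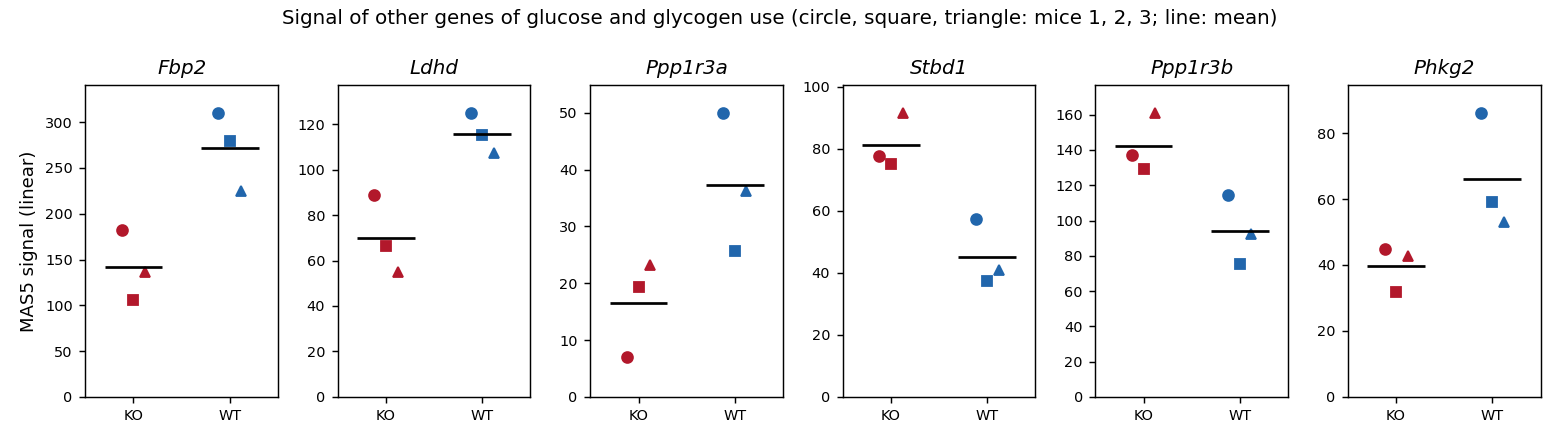
MAS5 signal (linear axis from 0) of 6 genes outside the module in each heart, KO left and WT right, with the line at the group mean. Fbp2, Ldhd, Ppp1r3a and Phkg2 lie lower and Stbd1 and Ppp1r3b higher in the KO hearts; Phkg2 and Ppp1r3b did not pass the test.

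In the last 2 lists no gene passed. Of 15 lactate, pyruvate and shuttle genes tested, 0 passed in limma, and 2 were higher and 0 lower at an unadjusted p under 0.05. The larger of these was Slc16a7, a pyruvate transporter, at 18.1, 23.4 and 28.4 in KO 1 to KO 3 and 12.2, 2.2 and 11.1 in WT 1 to WT 3 (0.70, adjusted p 0.0793, limma). It is a dim gene, with a WT mean of 8.5 near the limit on dim signals of 8.17. Of 12 genes of the pentose, polyol and hexosamine branches, 0 passed in limma, and 1 was higher and 2 lower at an unadjusted p under 0.05. Gfpt2, which opens the hexosamine branch, read 82.9, 104.8 and 155.4 in KO 1 to KO 3 and 89.1, 56.6 and 57.8 in WT 1 to WT 3 (0.62, adjusted p 0.0566, limma). Khk, ketohexokinase, read 28.9, 18.5 and 21.6 in KO 1 to KO 3 and 61.6, 42.7 and 30.3 in WT 1 to WT 3 (-0.62, adjusted p 0.0764, limma).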

How the data were processed

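RNA from 3 hearts labelled ERRα-null (KO) and 3 WT hearts was measured on 1-colour Affymetrix arrays. The authors deposited linear signal intensity, 1 value for a probe set, made with MAS5, per the submitters' processing notes; those sources do not give the scaling target or detection calls. Of 45099 probe sets, 62 are controls, 932 have several symbols and 9160 none, and these were left unnamed. All 28 gene identifiers of the members found matched the GRCm38.p6 gene table. Values were taken as log2(signal + 16) with no further scaling, which understates changes of dim genes. Probe sets were kept at or above the 40th percentile of mean log2 signal (log2 4.59, or signal 8.17), and the brightest probe set stood for its gene.

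KO and WT hearts were compared in limma 3.58.1 under R 4.3.3 (lmFit, then eBayes with trend set), by a two-sided test with Benjamini-Hochberg adjustment over 12946 genes and a threshold of 0.05. Isoform balance used an exact permutation test. With 45.6 prior degrees of freedom, p-values rest mainly on the variance of genes of like intensity. On simulated data with 200 changed genes, the fit recovered 81% of log2 changes of 1 and 98% of changes of 2, with 5 false calls. The simulated noise was independent between genes and shifted no whole array. It therefore does not cover the brighter WT 1 or the Esrra signal of KO 1.

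The members and gene lists were chosen with earlier results of these data known. All members were described; of the other lists, genes past the threshold were named, then those of smallest p. No 2 arrays were identical. Their number limits the precision. A comment in the header of WT 1 numbers the mouse differently from its title, and the title was used. Mouse numbers are numbers within a genotype; deviations of same-numbered hearts correlated at 0.027, -0.016 and 0.029, so the numbers do not pair them. Alternatives were other pseudocounts, scalings, filters, probe set rules, variance models, weights per array, the mouse number as replicate block, and sets of hearts with 1 or 2 removed.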

Additional observations from a re-analysis of the deposited data

How the results depend on the processing

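Over 20 alternatives, Hk1, Pfkp, Pgam1, Hk2, Pfkm and Eno3 kept their direction wherever they were tested. The 3 members called higher stayed 3 except for 1 without shared-probe sets (17 members tested), 0 without a filter on dim probe sets, 0 with no intensity trend and 4 with WT 1 and KO 1 both left out; leaving out 1 heart gave 0 to 3, and 0 was reached without KO 3. Beside 0 members called lower, 3 were called with quantile normalization and with median centring, 2 with cyclic loess, the 60th percentile filter, a robust trend and the replicate block, and 1 with WT 1 and KO 1 both left out; leaving out 1 heart gave 0 to 1. Beside 1 other pathway gene called higher, 2 were called with each of the 3 scalings, 3 with the 60th percentile filter and with a robust trend, 4 with array weights, 5 with both hearts left out, and 0 without a filter or a trend; leaving out 1 heart gave 0 to 3. Beside 3 other pathway genes called lower, 1 was called with cyclic loess, with the mean of probe sets and with no trend, and 0 without a filter; leaving out 1 heart gave 0 to 3. The replicate block, which the labels do not support as a pairing, gave adjusted p-values of 0.0227 for Pfkm and 0.0409 for Eno3 (limma) and moved no other member across the threshold. All genes called were 231 higher and 153 lower as reported, 48 and 18 without a filter, 114 and 57 with no trend, 434 higher with array weights, 431 higher with both hearts left out, and 105 to 301 higher and 22 to 208 lower when 1 heart was left out.

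Differences close to 0 changed sign. The ratio of Pfkl to Pfkm became 0.030 with a pseudocount of 64, 0.087 with the mean of probe sets and 0.099 with both hearts left out, and ran from -0.096 to 0.059 over single hearts left out. With quantile normalization, cyclic loess, array weights and both hearts left out, Pgam2 was at 0.0098, 0.0089, 0.025 and 0.078 and Ldha at 0.022, 0.016, 0.027 and 0.074. Slc2a4 was at 0.0011 with array weights and 0.025 with both hearts left out. With both left out Pkm was at 0.029, Gys1 at 0.11 and Pgm2 at -0.011. Tpi1 was at -0.067 with the mean of probe sets, and without shared-probe sets Pfkfb3 was at 0.017 and Ugp2 at -0.034. When 1 heart was left out, Slc2a4 ran from -0.12 to 0.030, Aldoc from -0.11 to 0.28, Tpi1 from -0.058 to 0.13, Pgk1 from -0.0041 to 0.38, Pgam2 from -0.10 to 0.042, Pkm from -0.20 to 0.023, Ldha from -0.089 to 0.041, Gbe1 from -0.18 to 0.10, Pgm2 from -0.018 to 0.11 and Slc16a1 from -0.064 to 0.23. The cause was not tested. With 1 heart left out the variance was often wholly shared between genes, so those p-values say little about a gene's own spread.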
